A study of Mus musculus with 8 samples.

Results

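The genes followed here are 8 mouse genes known from the lipid and protein barrier of the epidermis, read in RNA-seq libraries of distal colon epithelium: Elovl4, Abca12, Pnpla1, Alox12b, Aloxe3, Tgm1, Tgm3 and Tgm2. They were taken by symbol from the 54141 genes of the table, and were chosen by their known place in the skin barrier and with their CPM (counts per mega-count of the library, TMM-normalised) per library and per genotype in view, so those values are given as a description. All 8 were in the table and 4 of them, Abca12, Pnpla1, Tgm2 and Tgm3, passed the filter on low counts that left 16132 genes for testing. The libraries came from mice homozygous for a mutant Degs2 allele (Degs2_KO, 4 libraries) and from wild-type mice (WT, 4 libraries), all with c57bl6/j as strain background. Epithelial cells of the distal colon had been released with EDTA and strained in both groups, so the libraries are bulk samples of that cell fraction. The labels used here state neither the kind of allele nor the animals' age, and they do not say that each library is a separate mouse, so the errors below measure the spread between libraries, which may in part be technical. Degs2 encodes a desaturase and hydroxylase of sphingolipids that makes phytoceramides.

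In the epidermis, an acylceramide is a ceramide with an ultra-long fatty acid whose far end carries linoleate. ELOVL4 elongates the fatty acid, PNPLA1 transfers the linoleate, ABCA12 loads the lipid into lamellar granules, and the lipoxygenases ALOX12B and ALOXE3 oxidise the linoleate in sequence before the lipid is tied to protein. Transglutaminases cross-link the protein side of this cornified envelope: TGM1 at the keratinocyte membrane, TGM3 in the outer layers and hair follicle. TGM2 is the tissue transglutaminase found in many cell types. The colon is lined by a simple columnar epithelium that makes no cornified layer.

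The sequences before the start of the 3 tested members that RefSeq's promoter table lists (GRCm38.p6) are printed because Tgm3 was far more abundant than Abca12 and Pnpla1. Each run is the 250 bases before the annotated start, written 5′ to 3′ on the gene's strand, and capitals mark the TATAAA motif. Abca12 is read from chr1:71414911-71415160, minus strand, Pnpla1 from chr17:28858161-28858410, plus strand and Tgm3 from chr2:130012090-130012339, plus strand.
Abca12: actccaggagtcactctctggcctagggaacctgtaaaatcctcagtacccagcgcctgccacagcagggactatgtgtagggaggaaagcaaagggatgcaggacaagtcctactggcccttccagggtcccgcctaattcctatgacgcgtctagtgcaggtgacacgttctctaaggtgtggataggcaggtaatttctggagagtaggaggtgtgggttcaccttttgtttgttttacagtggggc
Pnpla1: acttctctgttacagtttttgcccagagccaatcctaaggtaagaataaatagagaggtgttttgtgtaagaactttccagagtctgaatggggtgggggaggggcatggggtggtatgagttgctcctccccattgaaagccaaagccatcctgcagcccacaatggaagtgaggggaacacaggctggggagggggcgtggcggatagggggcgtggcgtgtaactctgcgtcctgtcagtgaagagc
Tgm3: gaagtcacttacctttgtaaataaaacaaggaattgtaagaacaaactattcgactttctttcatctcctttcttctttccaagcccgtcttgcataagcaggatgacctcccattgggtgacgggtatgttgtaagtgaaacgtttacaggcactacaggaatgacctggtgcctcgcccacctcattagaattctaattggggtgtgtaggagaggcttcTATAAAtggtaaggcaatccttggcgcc
Only the Tgm3 run of these 3 held TATAAA on either strand, 28 bases before the start. This motif was looked for after the sequences had been seen, and 13.6% of the 32851 promoters of 300 bases in the table hold it. The windows of 300 bases that reach 50 bases past the start were also searched on both strands for the AACCNGTT motif of GRHL factors, the TTTATG motif of CDX factors and the TGANTCA motif of AP-1, which 2.09%, 11.9% and 7.81% of all promoters hold. Of the 6 members with an entry, the single match was TTTATG on the reverse strand of Tgm1, 31 bases before one of its starts. It overlaps no match of the other motifs. Aloxe3 and Tgm2 have no entry in the table.

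In mega-fragments (M), totals were between 43.2 M and 46.2 M in Degs2_KO and between 32.8 M and 49.8 M in WT after the authors' scaling was divided out. Degs2 checked the labels: it was at 53.3, 47.7, 65.6 and 65.9 CPM in Degs2_KO replicates 1 to 4 and at 151, 110, 106 and 120 CPM in WT replicates 1 to 4, so every Degs2_KO library was below every WT library. Its log2 fold change was -1.07 ± 0.15 (SE), with a 2-sided exact permutation p of 0.0286, the smallest that 70 assignments allow, and an adjusted p of 0.796 by the quasi-likelihood test of edgeR. Degs2 shares 278 of its 2583 exon bases with Evl. All 14 listed colon epithelium markers were at a mean of at least 1 CPM, a low bar that does not check the labelled distal position. Krt8, the keratin of simple epithelia, averaged 4942 ± 321 CPM in Degs2_KO and 4789 ± 584 CPM in WT (SD, n = 4 each), and Lgals4, an intestinal lectin, 3428 ± 238 and 3369 ± 298 CPM in the same order of groups. A pair of libraries stands apart: Hoxd13, a homeobox gene of the most posterior gut, was at 0.300 CPM in Degs2_KO replicate 3, against 42.5 to 60.7 CPM in the other Degs2_KO libraries, and at 0.695 CPM in WT replicate 1, against 38.8 to 85.3 CPM in the other WT libraries. The 7 listed homeobox genes of position along the colon, Hoxd13 among them, summed to 140 CPM in Degs2_KO replicate 3 and 143 CPM in WT replicate 1. Elsewhere they summed to 368 to 495 CPM, and the position of each library was not tested. The epithelium markers were not all steady, and this pair was not alike in all of them. Muc2, a mucin and the most abundant marker, averaged 11140 ± 9062 CPM in Degs2_KO and 14982 ± 7689 CPM in WT. It was at 522 CPM in Degs2_KO replicate 3 and 24564 CPM in WT replicate 1, with 5907 to 20373 CPM elsewhere.

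Of the 8 barrier genes, 4 were present at measurable levels and 4 were at or near 0, and each set held genes of both the lipid and the protein branch. Per exon length, Tgm3 was far above the rest. Its level was 289 ± 167 CPM per kb of exon in Degs2_KO and 419 ± 235 in WT (SD, n = 4 each), which placed it 118th in Degs2_KO and 70th in WT among 16110 tested genes with a gene model. Tgm2 followed at 2.29 ± 1.66 CPM per kb in Degs2_KO and 2.28 ± 1.84 in WT, then Abca12 at 1.43 ± 1.36 and 2.06 ± 2.78, and Pnpla1 at 0.625 ± 0.313 and 0.712 ± 0.427. The other 4 were at or below 0.0202 CPM per kb in both groups. Tgm3 was above Tgm2 in 8 of 8 libraries with ranges that do not touch, and Pnpla1 was likewise above Aloxe3. Between these limits the order was not fixed: Tgm2 was above Abca12 in 7 of 8 libraries and Abca12 above Pnpla1 in 4 of 8, with overlapping ranges in both groups. In bulk samples, fewer cells that make a message and less of it per cell cannot be told apart.

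**Figure D1:**
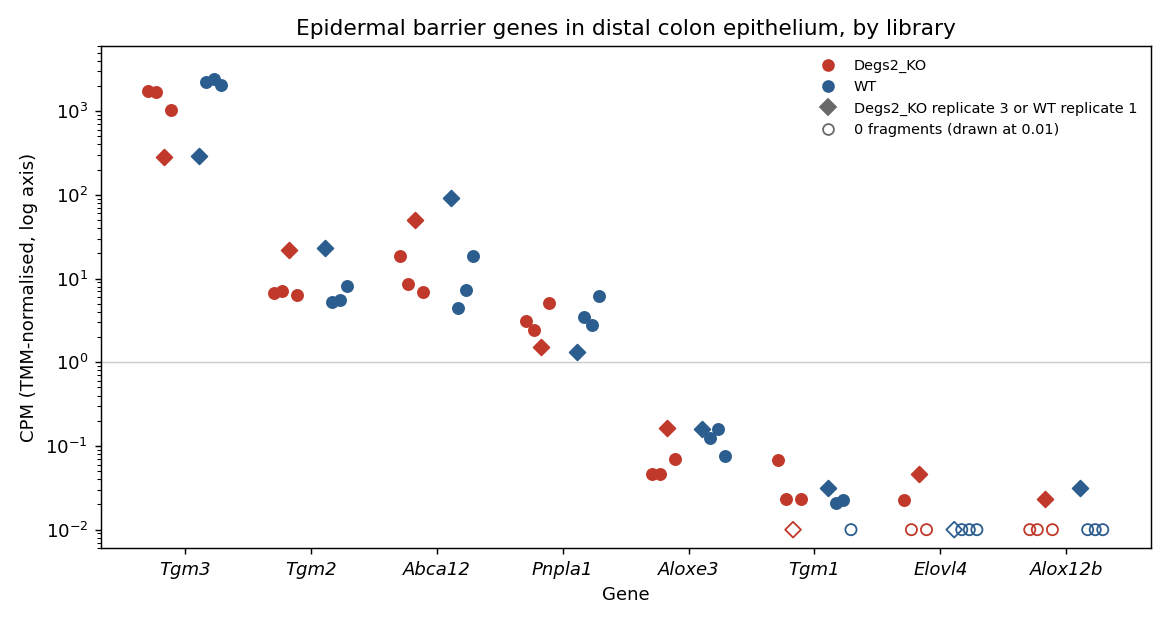
Level of each of the 8 barrier genes in each library, in TMM-normalised CPM on a log axis, Degs2_KO in red left of WT in blue; diamonds are Degs2_KO replicate 3 and WT replicate 1, open symbols are libraries with 0 fragments drawn at 0.01. Tgm3 lies between 279 and 2404 CPM, Tgm2, Abca12 and Pnpla1 between 1.33 and 91.6 CPM, and the other 4 genes below 0.2 CPM.

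**Figure D2:**
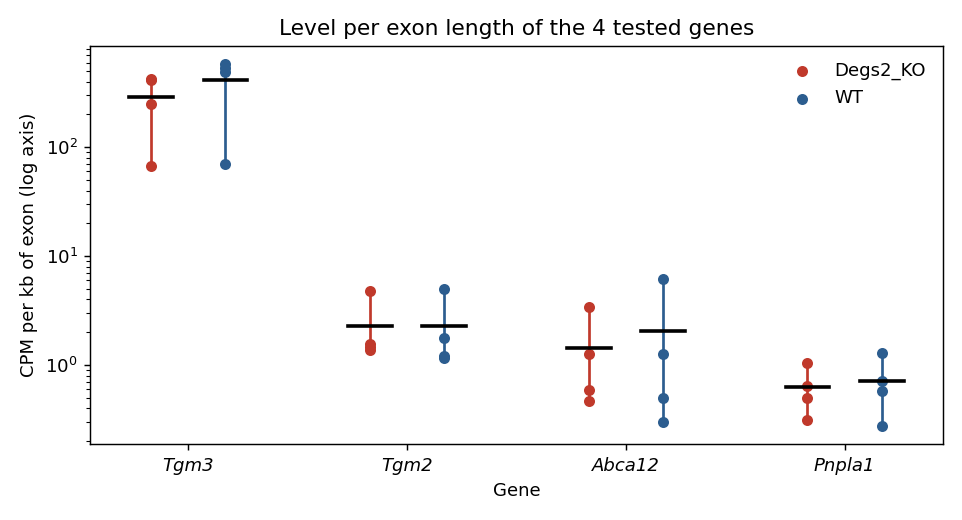
Level per kilobase of exon of the 4 tested barrier genes on a log axis, Degs2_KO in red left of WT in blue; points are libraries, vertical lines the range and black bars the mean of 4 libraries. The range of Tgm3 lies above those of the other 3 genes; the range of Abca12 overlaps those of Tgm2 and Pnpla1 in both groups, and Tgm2 and Pnpla1 overlap in WT but not in Degs2_KO.

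Elovl4, the elongase that makes the ultra-long fatty acids of acylceramide, was all but undetected. It had 1, 0, 2 and 0 fragments in Degs2_KO replicates 1 to 4 and 0 fragments in each of the 4 WT libraries. A count of 0 allows up to 3 fragments, between 0.0622 and 0.0948 CPM depending on the library, and this limit covers counting error only. No difference between the genotypes was detectable at this depth, and a low level is not excluded.

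Alox12b, the first lipoxygenase of the pair, had 1 fragment in Degs2_KO replicate 3 and 1 in WT replicate 1, and 0 in the other 6 libraries. Its partner Aloxe3 was found in every library at a trace. Aloxe3 had 2, 2, 7 and 3 fragments in Degs2_KO replicates 1 to 4 and 5, 6, 7 and 3 in WT replicates 1 to 4, which corresponds to 0.0807 ± 0.0552 CPM in Degs2_KO and 0.129 ± 0.0393 CPM in WT (SD, n = 4 each). The groups overlap, and totals of 14 and 21 fragments leave a difference between them undetectable. Alox12b and Aloxe3 are neighbours on the plus strand of chromosome 11, at 69156989 to 69169792 and 69125896 to 69149115 (GRCm38).

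Pnpla1, the transacylase that puts linoleate on the ceramide, was low but present in all 8 libraries. It was at 3.07, 2.41, 1.53 and 5.08 CPM in Degs2_KO replicates 1 to 4 and at 1.33, 3.44, 2.76 and 6.24 CPM in WT replicates 1 to 4. The groups overlap, the lowest value of each group is that of its Hoxd13-low library, and the highest is replicate 4 in both. The log2 fold change was -0.19 ± 0.49 (SE), with a 95% interval from -1.29 to 0.91. Its direction turned without WT replicate 4 (0.27) and without Degs2_KO replicate 3 (0.03), and it was -0.56 without Degs2_KO replicate 4. Pnpla1 (ENSMUSG00000043286; GRCm38 chromosome 17, 28858411 to 28890309, plus strand) shares 644 of its 4837 exon bases with the antisense gene Pnpla1os. Pnpla1os was at 1.27 ± 0.679 CPM in Degs2_KO and 1.53 ± 0.776 CPM in WT (SD, n = 4 each). The sources do not say if strand was used in counting, so reads of this antisense pair may be split between them.

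Abca12, the lipid transporter of lamellar granules, varied the most of the 4 tested members between libraries of 1 genotype. It was at 18.7, 8.69, 50.5 and 6.93 CPM in Degs2_KO replicates 1 to 4 and at 91.6, 4.42, 7.34 and 18.6 CPM in WT replicates 1 to 4. The highest value in each group belonged to the Hoxd13-low library, and the groups overlap over most of their range. Degs2_KO replicate 3 was 4.42-fold above the mean of the other Degs2_KO libraries, and WT replicate 1 was 9.05-fold above the mean of the other WT libraries. The mean was 21.2 ± 20.2 CPM in Degs2_KO and 30.5 ± 41.2 CPM in WT (SD, n = 4 each), and 11.4 ± 6.33 and 10.1 ± 7.49 CPM (SD, n = 3 each) without these libraries. The log2 fold change was -0.52 ± 0.97 (SE) with all libraries (95% interval -2.73 to 1.68) and 0.17 ± 0.56 without Degs2_KO replicate 3 and WT replicate 1. Leaving out WT replicate 1 alone turned its direction as well, to 1.08, while it was -1.42 without Degs2_KO replicate 3. The exons of Abca12 (ENSMUSG00000050296; chromosome 1, 71242276 to 71414910, minus strand) sum to 14.81 kb and overlap no other gene.

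Tgm3, the transglutaminase of the outer epidermis, had the highest level of the 8. It was at 1743, 1712, 279 and 1038 CPM in Degs2_KO replicates 1 to 4 and at 292, 2207, 2404 and 2026 CPM in WT replicates 1 to 4. The Hoxd13-low library was the lowest of each group, and over all 8 libraries the groups overlap. The mean of the other libraries was 5.36-fold above Degs2_KO replicate 3 in Degs2_KO and 7.57-fold above WT replicate 1 in WT. The log2 fold change was -0.54 ± 0.68 (SE) with all libraries, with a 95% interval from -2.07 to 0.996.

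Without those 2 libraries, the 3 remaining Degs2_KO libraries averaged 1498 ± 398 CPM and the 3 remaining WT libraries 2213 ± 189 CPM (SD, n = 3 each), and every Degs2_KO library was below every WT library. The log2 fold change was then -0.56 ± 0.20 (SE), with a 95% interval from -1.03 to -0.09, and an adjusted p of 0.999 by edgeR's quasi-likelihood test, which did not pass. The rule that chose the members names the 2 libraries left out, so this fit and its interval are a description and test nothing. In this set of 6, groups did not overlap for 9.45% of the 16132 genes, 5.03% had all Degs2_KO libraries below all WT libraries, and 2.34% were lower at an unadjusted p under 0.05 (of 16214 genes tested). In the pair that was left out, Tgm3 differed little between genotypes, at 279 CPM in Degs2_KO replicate 3 and 292 CPM in WT replicate 1. No exon of another gene overlaps those of Tgm3 (ENSMUSG00000027401; chromosome 2, 130012349 to 130050399, plus strand).

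Tgm2, the tissue transglutaminase, was at 6.71, 7.18, 22.0 and 6.28 CPM in Degs2_KO replicates 1 to 4 and at 23.1, 5.29, 5.52 and 8.15 CPM in WT replicates 1 to 4. Here too the Hoxd13-low library was the highest in each group, 3.28-fold above the mean of the others in Degs2_KO and 3.65-fold in WT, while the other 6 libraries lay between 5.29 and 8.15 CPM. Its fitted log2 difference was 0.01 ± 0.58 (SE), and 0.09 ± 0.19 without the Hoxd13-low pair (95% interval -0.35 to 0.54, a fold between 0.785 and 1.45). It was -0.64 without Degs2_KO replicate 3 and 0.75 without WT replicate 1. Tgm2 (ENSMUSG00000037820; chromosome 2, 158116402 to 158146436, minus strand) shares 370 of its 4608 exon bases with Rprd1b and 633 with Gm20412, both on the other strand. Rprd1b, which regulates RNA polymerase II, was at 49.4 ± 2.53 CPM in Degs2_KO and 47.3 ± 2.54 CPM in WT, and it was at 50.5 and 47.5 CPM in Degs2_KO replicate 3 and WT replicate 1, inside the range of the other libraries. Gm20412 was at 4.07 and 3.32 CPM in these 2 libraries and between 0.725 and 1.45 CPM in the other 6, so a part of the counts of this overlapping pair may be shared.

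Tgm1, the membrane transglutaminase of keratinocytes, had 3, 1, 0 and 1 fragments in Degs2_KO replicates 1 to 4 and 1, 1, 1 and 0 in WT replicates 1 to 4. It was at or under the limit of 3 fragments in every library, and no fold is given. Tgm1 is a minus-strand gene of chromosome 14 (55700009 to 55713926), and Elovl4 one of chromosome 9 (83778692 to 83806277).

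After Benjamini-Hochberg adjustment of edgeR's quasi-likelihood p-values over all genes, 0 of the 4 tested members and 0 of 16132 genes (0%) passed. At an unadjusted p under 0.05 it found 0 of the 4 tested members and 183 genes (1.13%, of which lower in Degs2_KO 0.806% of all), and DESeq2 called 2 genes, Degs2 and Dlk1, and 0 members. The groups did not overlap for 0 of the 4 tested members and for 170 genes (1.05%). These counts describe the members and test nothing, since they were chosen with this comparison in view. The 95% intervals span a fold from 0.151 to 3.21 for Abca12, from 0.238 to 1.99 for Tgm3, from 0.408 to 1.88 for Pnpla1 and from 0.402 to 2.51 for Tgm2, so changes within these bounds are not excluded.

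**Figure D3:**
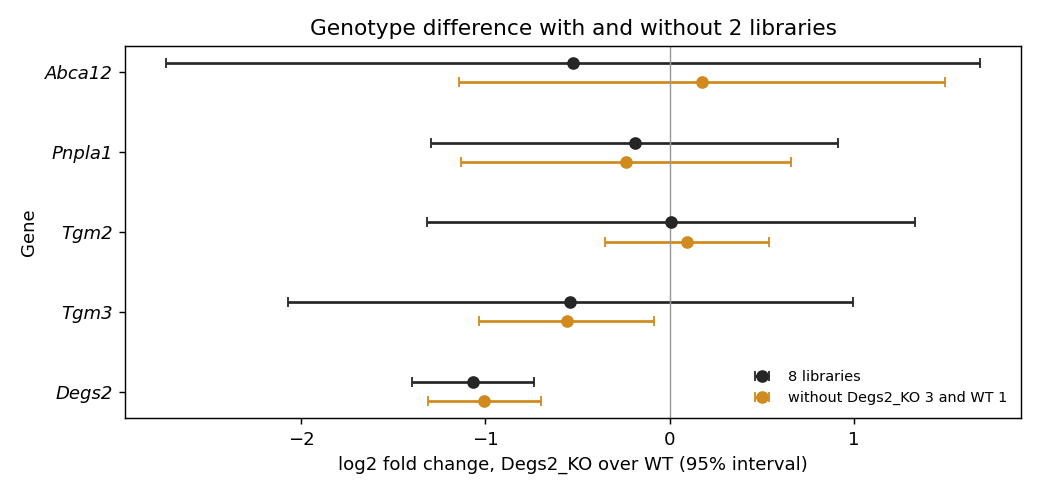
Fitted log2 fold change of Degs2_KO over WT with its 95% interval for the 4 tested barrier genes and Degs2, with all 8 libraries (black) and without Degs2_KO replicate 3 and WT replicate 1 (orange). With all libraries the intervals of the 4 barrier genes include 0 and that of Degs2 lies below 0; Abca12 is at -0.52 with all libraries and at 0.17 without the 2.

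The same 2 libraries lay outside the range of the other 6 in all 4 tested members. For Pnpla1 they changed the SD in CPM little: without them it was 1.39 CPM in Degs2_KO and 1.85 CPM in WT, against 1.51 and 2.06 CPM with all libraries. In fold terms they carried more of the Pnpla1 spread. The mean of the other libraries was 2.31-fold above Degs2_KO replicate 3 in Degs2_KO and 3.13-fold above WT replicate 1 in WT. The SE of the Pnpla1 log2 fold change was 0.38 without them and 0.49 with all libraries. Abca12 and Tgm2 were higher in both Degs2_KO replicate 3 and WT replicate 1 than in any of the other 6 libraries, a position that 17.8% of all tested genes share, and Tgm3 and Pnpla1 were lower in both, as were 16.6% of all tested genes. Both libraries were at least 2-fold above each of the others for Abca12 and Tgm2 (1.02% of tested genes) and at least 2-fold below each of the others for Tgm3 (1.04%). Pnpla1 did not reach that distance. Since the rule that chose the members names these libraries, the shares are given for scale and no test was made.

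**Figure D4:**
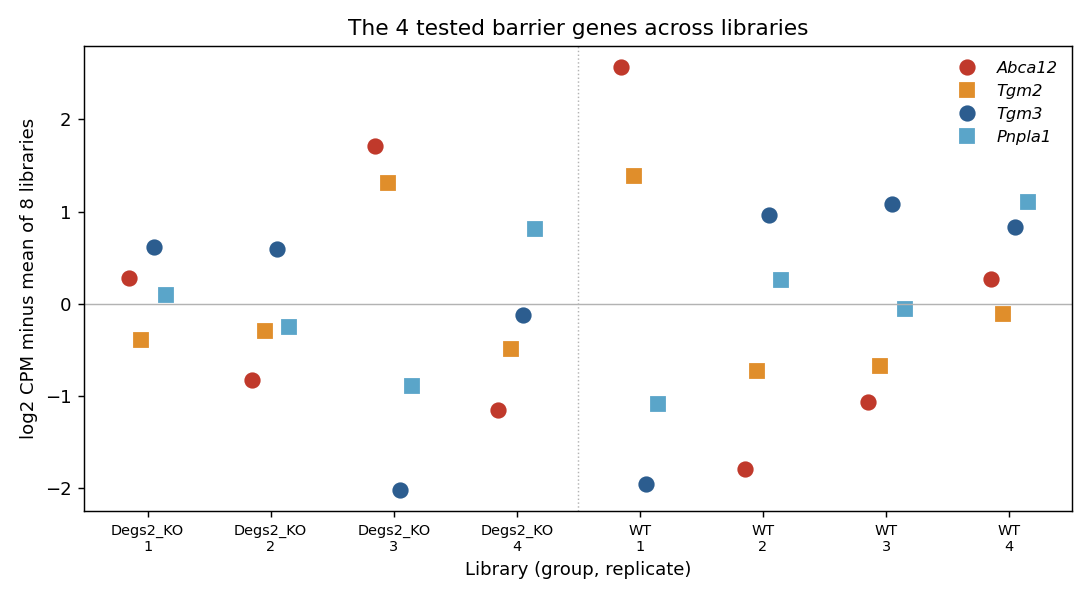
log2 CPM of the 4 tested barrier genes minus each gene's mean over the 8 libraries, by library, Degs2_KO left of WT. In Degs2_KO replicate 3 and WT replicate 1, Abca12 and Tgm2 lie above 1 and Tgm3 and Pnpla1 lie below 0.

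The genes whose library profile was closest to each member were found by the root mean square difference of centred log2 CPM over the 8 libraries, among 11791 named genes at a mean of at least 1 CPM. For Abca12, whose own deviation was 1.41, they were Grin3a, a glutamate receptor subunit (difference 0.27), H2-T3, a nonclassical class I molecule (0.33), and Cyp2c65, a cytochrome P450 (0.34). H2-T3 was at 67.1 CPM in Degs2_KO replicate 3 and 64.0 CPM in WT replicate 1, with 4.52 to 26.8 CPM elsewhere. For Tgm2 they were Slc35d1, a nucleotide sugar transporter (0.14), Gcnt3, a mucin glycosyltransferase (0.18), and Aqp1, a water channel (0.18), against an own deviation of 0.80.

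For Tgm3, with an own deviation of 1.20, the closest were AI854703 (0.23), Foxp2, a transcription factor (0.26), and Trpv3, a cation channel also known from keratinocytes (0.28). Trpv3 was at 10.9 CPM in Degs2_KO replicate 3 and 11.4 CPM in WT replicate 1, with 30.7 to 74.1 CPM elsewhere. For Pnpla1, with an own deviation of 0.71, they were its antisense gene Pnpla1os (0.24), Adgrf1, an adhesion receptor (0.25), and Nrap, an actin-binding protein (0.33). Among the members themselves, Tgm2 was the 82nd closest gene to Abca12 (0.72), while Abca12 was the 2529th closest to Tgm2. Pnpla1 was the 329th closest to Tgm3 (0.85), but Tgm3 only the 9848th closest to Pnpla1, whose own deviation is smaller than that difference. The other pairs were among the least alike of the 11791 genes, up to a difference of 2.50 between Abca12 and Tgm3, where Tgm3 ranked 11763rd. These profiles share the 2 libraries that stand apart, and closeness is a description of 8 libraries.

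Most markers of the tissue these genes are known from were near 0. Of 19 genes of squamous keratinocytes, 17 were under 1 CPM in every library, and Trp63, the master regulator of stratified epithelia, and Krt2 were at 0 in all 8. The sum of the list was between 75.3 and 95.3 CPM in Degs2_KO and between 75.1 and 102.8 CPM in WT, and nearly all of it was Serpinb5, a serpin, at 80.4 ± 8.72 CPM in Degs2_KO and 84.5 ± 11.6 CPM in WT (SD, n = 4 each). The sum was at 79.0 CPM in Degs2_KO replicate 3 and 75.1 CPM in WT replicate 1, against 75.3 to 102.8 CPM in the other 6. Krt10, a keratin of the upper epidermis, was at 1.78 ± 0.0838 CPM in Degs2_KO and 1.99 ± 0.222 CPM in WT. Immune markers summed to more in the 2 libraries that stand apart, but single markers went both ways. The sum was 24.1 CPM in Degs2_KO replicate 3 and 33.6 CPM in WT replicate 1, against 8.94 to 22.7 CPM in the other 6. Ptprc, Cd3e, Cd8a and C1qa were among the markers above the other 6 libraries in both. C1qb was among those below the other 6 in both, so the sum does not stand for every immune marker. Of the 11 markers, 0 were at 0 in all libraries. Fibroblast sums were 2.75 and 4.17 CPM in these 2 libraries, within the range of the others (1.45 to 32.3 CPM). Between genotypes, they were 1.45 to 16.6 CPM in Degs2_KO and 4.17 to 32.3 CPM in WT, and all 4 tested fibroblast genes of 9 were lower in Degs2_KO (median -0.98 on the log2 scale), 0 of them past the threshold of edgeR. The endothelial and smooth muscle sums stayed at or under 13.1 CPM in all 8, with Emcn at 0 throughout. The part of these other cells in the levels of the barrier genes was not tested.

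Of 15 other genes of the acylceramide pathway 10 were tested, 6 higher and 4 lower in Degs2_KO, 0 past edgeR's threshold, with a median log2 fold change of 0.01, against -0.0069 over all tested genes, of which 7648 were higher and 8484 lower. The most abundant were Psap, the saposin precursor, at 593 ± 90.5 CPM in Degs2_KO and 597 ± 93.0 CPM in WT, Ugcg, the glucosylceramide synthase, at 165 ± 7.49 and 176 ± 23.2 CPM, and Elovl6, an elongase of long-chain fatty acids, at 133 ± 20.6 and 118 ± 24.6 CPM (SD, n = 4 each, Degs2_KO before WT). Cers3, the ceramide synthase of the epidermal acylceramides, was at 0.259 ± 0.0745 CPM in Degs2_KO and 0.403 ± 0.104 CPM in WT, with a log2 fold change of -0.60 ± 0.30 that did not pass.

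Of the cornified envelope precursors, most were at or near 0. Of 36 listed genes 18 were at 0 in all 8 libraries, among them Ivl, Flg and Sprr3, and 23 were under 1 CPM in each library. Estimates had failed in at least 1 library for Sprr2a1 and Sprr2a2, which are near-identical copies. Of the 11 tested, 5 were higher and 6 lower in Degs2_KO, 0 passed, and the median log2 fold change was -0.04. Sprr2a3, a small proline-rich protein whose copies may share reads, was at 447 ± 93.6 CPM in Degs2_KO and 467 ± 47.4 CPM in WT. S100a10, a calcium-binding protein partner of annexin, was at 254 ± 21.5 and 239 ± 34.5 CPM, and Evpl, a plakin of the envelope, at 118 ± 28.0 and 133 ± 29.7 CPM (SD, n = 4 each, Degs2_KO before WT). Sbsn, a suprabasal epidermal protein, had a log2 fold change of -0.47 ± 0.27, which did not pass.

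Of 12 proteases and inhibitors of cornification 7 were tested, 3 higher and 4 lower, 0 past the threshold, with a median of -0.02, and the kallikreins Klk5, Klk6 and Klk7 were at 0 in all libraries. St14, the membrane protease matriptase, was at 410 ± 22.7 CPM in Degs2_KO and 414 ± 55.9 CPM in WT, and Ctsd, a lysosomal protease, at 253 ± 18.5 and 250 ± 18.4 CPM. Casp14, the caspase of the cornified layer, was at 3.79 CPM in Degs2_KO replicate 3 and 4.14 CPM in WT replicate 1, against 10.8 to 23.7 CPM in the other 6 libraries. Both libraries were thus below the other 6 for Casp14, as for Tgm3 and for 16.6% of all tested genes. They were also at least 2-fold below each of the others, as for Tgm3 and for 1.04% of tested genes. Other genes of this list went the other way, among them Ctsd. It was at 275 CPM in Degs2_KO replicate 3 and 278 CPM in WT replicate 1, against 234 to 261 CPM in the other 6.

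The families of the members gave 0 calls by edgeR. Of 6 other transglutaminases 0 reached 1 CPM in any library, and Tgm4 had a log2 fold change of 0.26 ± 0.31 and Tgm5 one of -0.14 ± 0.42. Of 5 other lipoxygenases, Alox5, the leukotriene-forming enzyme of leukocytes, was at 5.55 ± 1.38 CPM in Degs2_KO and 4.06 ± 2.60 CPM in WT, and Alox15 at 0.902 ± 0.381 and 0.778 ± 0.433 CPM. Of 6 other patatin-like phospholipases 4 were tested (median -0.04), with Pnpla2, the triglyceride lipase, at 116 ± 25.2 CPM in Degs2_KO and 115 ± 20.2 CPM in WT, Pnpla6 at a log2 fold change of -0.13 ± 0.09 and Pnpla8 at -0.04 ± 0.09. Of 6 other elongases 4 were tested (median 0.11), with Elovl7 at 114 ± 23.5 and 115 ± 22.7 CPM, Elovl1 at 79.3 ± 10.6 and 75.9 ± 12.7 CPM and Elovl5 at a log2 fold change of 0.25 ± 0.11, while Elovl1 and Elovl6 stand in the pathway list too. Of 15 other ABCA transporters 7 were tested and all 7 were lower, with a median of -0.18, and 0 passed. Over all 16132 tested genes 8484 were lower. The sum of the list overlapped between groups, at 153 to 206 CPM in Degs2_KO and 188 to 217 CPM in WT, and was lowest in Degs2_KO replicate 3. Abca14 had a log2 fold change of -0.51 ± 0.23 (SE). Abca3, the surfactant lipid transporter of the lung, was at 91.2 ± 13.2 and 103 ± 8.80 CPM, and Abca7 at 73.0 ± 8.70 and 78.2 ± 14.4 CPM (SD, n = 4 each, Degs2_KO before WT).

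Most transcription factors known from the epidermal barrier were detected in this simple epithelium, at widely differing levels. Of 21 listed, 20 had a mean of at least 1 CPM and were tested, 8 higher and 12 lower in Degs2_KO, 0 past the threshold, with a median log2 fold change of -0.02. The lowest of the 21 were Gata3, with means of 0.178 CPM in Degs2_KO and 0.158 CPM in WT, Grhl3 (1.32 and 1.31 CPM) and Grhl1 (1.78 and 1.77 CPM). Klf4, a factor of both epidermal and colonic differentiation, was at 1257 ± 190 CPM in Degs2_KO and 1195 ± 178 CPM in WT. The epithelial factors Ehf and Elf3 were at 625 ± 23.6 and 583 ± 25.9 CPM in Degs2_KO and at 606 ± 32.6 and 597 ± 129 CPM in WT (SD, n = 4 each).

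**Figure D5:**
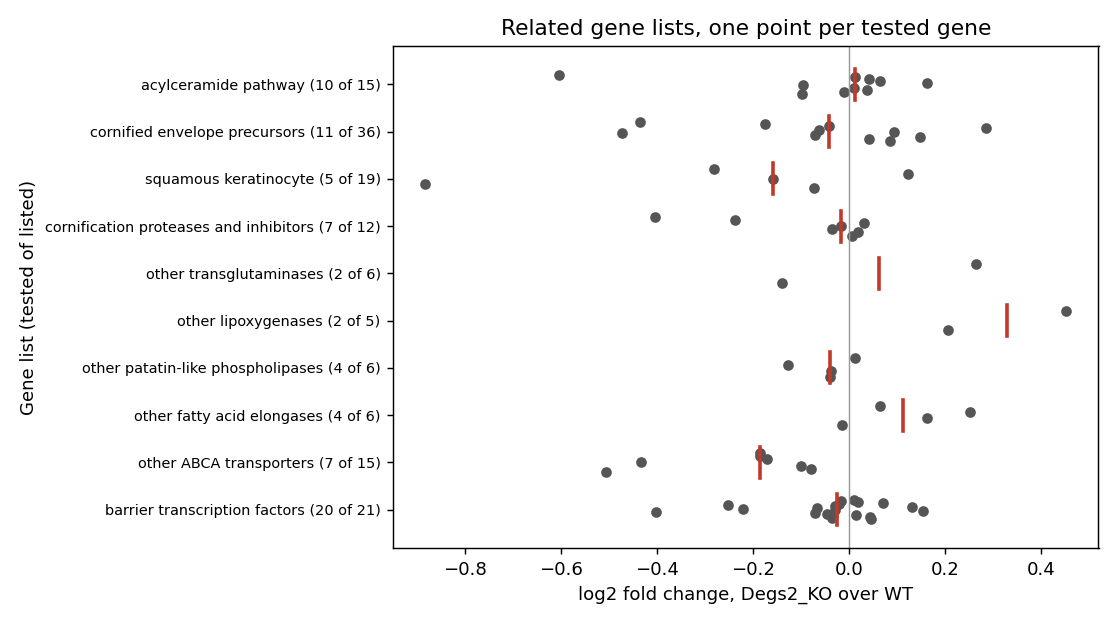
Fitted log2 fold change of Degs2_KO over WT for each tested gene (point) of the 10 gene lists around the members, with the list's median as a red bar; labels give tested of listed genes. The medians lie between -0.18 and 0.33, and no point passed edgeR's adjusted threshold.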

How the data were processed

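The authors deposited a table in Cuffdiff's format, per the file headers, with an estimated count for every gene in each library. cutadapt 1.9, TopHat2 2.0.10, Cufflinks 2.1.1 and the mm10 build are named in the submitters' processing notes; the sources used here give no annotation, options or use of strand. The deposited estimated counts are multiples of 1 step per library, which marks a scaling per library, and between 96.9% and 97.2% of values up to 100 came out whole, within 0.02, after division by it. Of 54141 gene IDs 54074 matched a symbol. The 47 genes with a failed estimate in any library were left out, and 24 other value columns were not used.

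Estimated counts were rounded and tested with edgeR 4.0.16 in R 4.3.3 (filterByExpr with a minimum count of 10 and total of 15, TMM, 2-sided quasi-likelihood test, Benjamini-Hochberg threshold 0.05), with genotype as the only term. DESeq2 1.42.0 was an alternative. CPM are TMM-normalised and log2 CPM have a prior count of 2. The fits were also run on simulated counts with 200 changed genes. These had the same dispersion for every gene and no libraries that stand apart, so they do not show how the fits behave on the spread seen here. Levels per kb use merged exons of GENCODE M21 (GRCm38, the assembly called mm10).

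The members, the lists and the tests were chosen with earlier results of these data known. The text may name the members, Degs2, Hoxd13, in each list those that passed or else up to 3 by mean CPM and 2 by smallest p, and the 3 genes closest to each member at a mean of at least 1 CPM. Dlk1, Evl, Gm20412, Rprd1b, Pnpla1os as an overlap, Gata3, Grhl1, Grhl3 and genes at 0 were named after their values were seen.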

Additional observations from a re-analysis of the deposited data

Results flagged for a closer look

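In 106 groups of 4 libraries (53 named genes in each genotype), a library was looked for whose distance from its nearest neighbour took up most of the range of its group. There were 19 such values in 16 genes, 11 of them in Degs2_KO replicate 3 and 6 in WT replicate 1. Chance flags about 1 in 20 groups of independently chosen genes, but the number here cannot be set against that: the members were chosen with these 2 libraries in view, and Cyp2c65, Slc35d1, Gcnt3 and Aqp1 for a profile like a member's. None is given an explanation, and the part of any technical or biological cause was not tested.

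Among the barrier genes, Tgm2 was at 22.0 CPM in Degs2_KO replicate 3, against 6.28 to 7.18 CPM in the other Degs2_KO libraries, and at 23.1 CPM in WT replicate 1, against 5.29 to 8.15 CPM in the other WT libraries. Abca12 was at 91.6 CPM in WT replicate 1, against 4.42 to 18.6 CPM in the other WT libraries. Alox12b was at 0.0231 CPM in Degs2_KO replicate 3 and at 0.0316 CPM in WT replicate 1, which is 1 fragment each against 0 in the other libraries, so that these values stand apart by construction.

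In Degs2_KO replicate 3, Cers3 stood apart at 0.370 CPM, Psap at 729 CPM, Alox5 at 7.60 CPM, Pnpla2 at 154 CPM and Elovl1 at 95.1 CPM, all above the other Degs2_KO libraries. Of the genes with profiles close to a member, Cyp2c65 stood apart there at 283 CPM, Slc35d1 at 156 CPM, Gcnt3 at 528 CPM and Aqp1 at 112 CPM. These heights were not particular to that library, since WT replicate 1 was above the other 6 libraries for the same genes. It was at 0.505 CPM for Cers3, 710 CPM for Psap, 7.90 CPM for Alox5, 140 CPM for Pnpla2 and 91.7 CPM for Elovl1. Cyp2c65 was at 267 CPM there, Slc35d1 at 159 CPM and Gcnt3 at 407 CPM. In WT replicate 1, Ugcg was low at 142 CPM, Ctsd high at 278 CPM and Aqp1 high at 92.7 CPM. S100a10 was high in WT replicate 4 at 290.2 CPM, and Ehf low in Degs2_KO replicate 4 at 589 CPM.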

How the results depend on the processing

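Of 15 alternatives (median-of-ratios factors, DESeq2, no filter, the authors' scaling undone, both blocks, each library left out, and both Hoxd13-low libraries left out), 14 called 0 genes, 0 members and 0 list genes, and DESeq2 called 2 genes with 0 members and 0 list genes. Degs2 kept its direction in all 15, with a log2 fold change from -1.13 to -0.94 over the libraries left out, and DESeq2 called it (-1.06, adjusted p 3.32e-06). Abca12 ranged from -1.42 to 1.08 (3 of 15 positive), Pnpla1 from -0.56 to 0.33, Tgm2 from -0.64 to 0.75 and Tgm3 from -0.89 to -0.21 (0 of 15 positive). All stayed within the spread between replicates of their own gene. The alternatives refit the same libraries and are not independent, so neither this nor the counts of signs is evidence for a steady effect. With the replicate number as a block edgeR called 0 genes, with 99 at an unadjusted p under 0.05, and Degs2 was at -1.07. Deviations of same-numbered libraries had mixed correlations (-0.42, 0.44, -0.56 and -0.10 for numbers 1 to 4). The Hoxd13-low libraries carry different numbers, so these values cannot decide if same-numbered libraries share more than a number. Genes at an unadjusted p under 0.05 numbered 183, between 79 with the 3 pairs blocked and 782 without WT replicate 1, and the cause was not tested. Depth limits the 4 members with under 10 fragments in most libraries.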
